A study of Saccharomyces cerevisiae with 25 samples.

Results

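The genes described here are those of the yeast peroxisome and of the oxidation of fatty acids inside it. They comprised every row of the deposited expression table named PEX followed by a number, 26 genes in all, and 12 named genes for enzymes and transporters: POX1, FOX2, POT1, FAA2, ECI1, SPS19, DCI1, MLS1, CIT2, CAT2, PXA1 and PXA2. These 38 genes were found among 6650 named rows. The 25 RNA libraries came from Saccharomyces cerevisiae BY4741, a common haploid strain whose mating type is a, and the cells carried a fluorescent reporter (pho84pr-YFP, the PHO84 promoter driving YFP) and a pho85 DAmP allele. PHO85 encodes the cyclin-dependent kinase that keeps the phosphate starvation programme off when phosphate is plentiful, and DAmP alleles are designed to lower a gene's mRNA. The 24 tested libraries came from cells in medium without phosphate, taken every 15 min up to 360 min, and were set in windows of 8: early for 15 to 120 min, middle for 135 to 240 min, and late for 255 min onward. The library they were set against came from the same strain in high phosphate medium at 0 min. Each time was 1 library of 1 culture, so p-values measure the spread between libraries of a window, which also holds change with time. In comparisons with 0 min that spread stands in for the error of the 1 library at 0 min, which was not measured. All libraries carried both the reporter and the DAmP allele, no strain with intact PHO85 was analysed here, and no cells moved to fresh high phosphate medium were analysed, so loss of phosphate and the change of medium cannot be told apart in comparisons with 0 min. The carbon source is not given in the labels.

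Peroxisomes are organelles bounded by a single membrane, and in yeast they are the only site of fatty acid β-oxidation. Peroxins, the products of the PEX genes, recognise enzymes in the cytosol by a targeting signal (PTS), dock them at the membrane, move them inside and recycle the receptor with the help of ubiquitin. Others place membrane proteins or set the size and number of the organelles. The β-oxidation enzymes are known for strong repression on glucose and strong induction on oleate, which the factors Oaf1 and Pip2 bring about through a promoter sequence called the oleate response element. Acetyl-CoA made by β-oxidation leaves the peroxisome through the glyoxylate cycle or bound to carnitine.

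That element was looked up in the 500 bases before the start codon of every gene, in the R64 genome from RefSeq, since it is the sequence feature that the members could share. The letters searched, on both strands, were CGGNNNTNA followed after 9 to 12 further bases by CCG. A match was found before 12 of the 38 members (31.58%), which were 8 of the 12 genes for enzymes and transporters (66.67%) and 4 of the 26 peroxin genes (15.38%), against 113 of 6000 promoters of the same length over the whole genome (1.883%). The 14 matches in the members began between 135 and 312 bases before the start codon. The following are shown because their genes carry the results below, each on the coding strand of its gene, with 20 bases on either side and the match in capitals. The FOX2 and PEX13 matches read on the opposite strand, so their capitals are the reverse complement of the letters searched, and the POT1 match reads on both.
ECI1: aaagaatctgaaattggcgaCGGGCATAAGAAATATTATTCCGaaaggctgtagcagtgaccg
SPS19: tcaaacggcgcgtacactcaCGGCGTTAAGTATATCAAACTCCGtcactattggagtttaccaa
PXA2: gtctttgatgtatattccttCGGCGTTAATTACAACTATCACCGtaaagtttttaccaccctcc
POT1: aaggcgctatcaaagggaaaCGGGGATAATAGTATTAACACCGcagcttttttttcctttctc
FOX2: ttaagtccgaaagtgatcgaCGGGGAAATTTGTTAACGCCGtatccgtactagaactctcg
PEX13: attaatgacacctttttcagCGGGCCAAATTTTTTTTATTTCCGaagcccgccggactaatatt

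The ECI1 stretch lies at chrXII:707171-707233, the SPS19 stretch at chrXIV:259392-259455, the PXA2 stretch at chrXI:89015-89078, the POT1 stretch at chrIX:41590-41652, the FOX2 stretch at chrXI:457285-457345 and the PEX13 stretch at chrXII:537096-537159. All lie upstream of the gene they are named for, in the R64 assembly. Besides these 6 genes, POX1 had 2 matches, FOX2 had a second one, and FAA2, DCI1, PEX5, PEX6 and PEX11 had 1 each. The stress response element AGGGG, on either strand, stood before 9 of the 38 members (23.68%), against 34.07% of all promoters, and overlapped none of the 14 matches. CACGTG, the core sequence bound by Pho4, stood before 0 of the 38, against 6.233% of all promoters. These are matches of letters, not shown sites of binding. Since the β-oxidation genes are known to be induced through the oleate response element, their share of matches describes the set only.

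The values are reads per 1000000 (RPM), and a gene with fewer than 10 reads in a library has no value there. The lowest value a library could list was 2.02 RPM at 0 min, the deepest library with 4954493 listed reads. In the 19 deeper libraries without phosphate, which held 169768 to 1981423 listed reads, it lay between 5.05 and 58.9 RPM. The libraries at 45, 75, 90, 210 and 330 min held fewer than 100000 listed reads each, with lowest values from 123 to 13046 RPM, and listed 0, 6, 0, 0 and 0 of the 38 members. PHO85 was listed at 0, 105, 165 and 240 min, at 5.05 to 21.3 RPM. HIS3, LEU2, MET17 and URA3, which BY4741 lacks, were listed in no library. The a-factor gene MFA1 was listed in 24 libraries at 648 to 3428 RPM, and the α-factor gene MF(ALPHA)1 in 3 at no more than 8.51 RPM.

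At 0 min 34 of the 38 members were listed, and PEX18, POX1, POT1 and MLS1 were not, which places each below 2.02 RPM. In the deeper libraries 19 to 35 members were listed in the early window, 16 to 35 in the middle window and 18 to 32 in the late window. The lowest listable value was 5.05 to 29.4 RPM in the early window, 6.46 to 51.8 RPM in the middle window and 15.5 to 58.9 RPM in the late window, so a low gene was harder to list late. The members listed in all 20 deeper libraries numbered 12, among them PEX6, PEX8, PEX10, PEX13, PEX19, PEX21, PEX27, PXA1, ECI1, SPS19 and CIT2. PEX18 was listed in none.

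Per kb of coding sequence at 0 min, the 34 listed members ran between 2.05 RPM for PXA2 and 80.6 RPM for PEX19, with a median of 29.7 RPM per kb, against 37.4 over 4998 listed coding genes. PEX19, PEX2 and PEX21 led with 80.6, 74.5 and 73.6 RPM per kb. ECI1, CIT2 and SPS19, at 33.5, 33.4 and 32.4, were the enzyme genes with the highest levels per kb. CAT2, FOX2, FAA2 and PXA2 stood at 5.72, 4.26, 3.52 and 2.05 RPM per kb. With 1 library at 0 min this order has no replicate error.

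Peroxin transcripts summed to 1590 to 1949 RPM over the 7 deeper late libraries, with a median of 1709, against 867 to 1112 RPM with a median of 1037 over the 5 deeper early ones. At 0 min they summed to 975 RPM. The late and early sums did not overlap, although unlisted genes count as 0 in both. The enzyme and transporter transcripts summed to 401 to 671 RPM in the late window with a median of 580, against 219 to 488 RPM with a median of 370 in the early window, and to 192 RPM at 0 min. Their late and early ranges overlapped only through the library at 360 min, whose 401 RPM came from 4 listed genes. The other deeper late libraries held 559 RPM or more, above the early maximum of 488 RPM. The middle window, at 274 to 650 RPM, had a median of 637, above the late one, again with unlisted genes as 0. With each unlisted gene at its library's lowest listable value, the medians were 652 RPM in the middle window and 656 RPM in the late one. The order of these windows is therefore not settled. The middle sums of the peroxin transcripts were 985 to 1676 RPM with a median of 1285. In bulk RNA more transcript per cell and more cells that express a gene cannot be told apart.

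Across all genes listed often enough, 4364 were tested with limma on the log2 scale, and 25 of the 38 members were among them. The filter asked for a mean of 10 RPM, a value at 0 min and at least 4 libraries in each window, so the members that were low early are mostly among the 13 not tested. In the early window 0 of the 25 passed limma's adjusted p threshold of 0.05 against 0 min, where 0.229% of all genes did, and 1 had an unadjusted p under 0.05, as had 132 of the 4364. In the middle window again 0 passed, against 1.76% of all genes, and 6 had an unadjusted p under 0.05, as had 874 of the 4364, so neither count stands far from that of all genes. In the late window 5 of 25 rose and 0 fell against 0 min, where 15.1% of all tested genes rose and 4.35% fell (19.5% in either direction). Late against early, 17 of 25 rose and 0 fell, where 29.8% of all tested genes rose and 7.36% fell (37.1% in either direction). These are shares of 20% and 68% of the tested members. The median log2 change of the 25 was 1.09 in late against 0 min, where it was 0.48 over all tested genes, and 0.80 in late against early, where it was 0.35.

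The scaling of the libraries moved both counts. With each deeper library centred on its median, 7 of 25 members rose late against early, a share of 28% against 15.4% of all genes, and 2 of 25 rose late against 0 min, against 8.37% of all genes. Under that centring 672 genes rose and 683 fell late against early, against 1300 and 321 as deposited, and for late against 0 min 365 rose and 441 fell, against 659 and 190. The 7 members that rose late against early both as deposited and centred were ECI1, PEX27, PEX21, PEX13, PEX28, PEX10 and PEX19. When ribosomal protein genes were left out of the library totals, 5 of these passed, while PEX13 changed by 0.42 and PEX19 by 0.21, with adjusted p of 0.276 and 0.44 by limma. With quantile normalization ECI1, PEX27 and PEX21 passed late against early, and 0 members passed late against 0 min. Without the early library at 30, 60, 105 or 120 min, 20 members could be tested and 9 to 11 of them rose late against early, and 3 rose late against 0 min. Without the late library at 285 or 315 min, 3 rose late against 0 min as well.

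**Figure D1:**
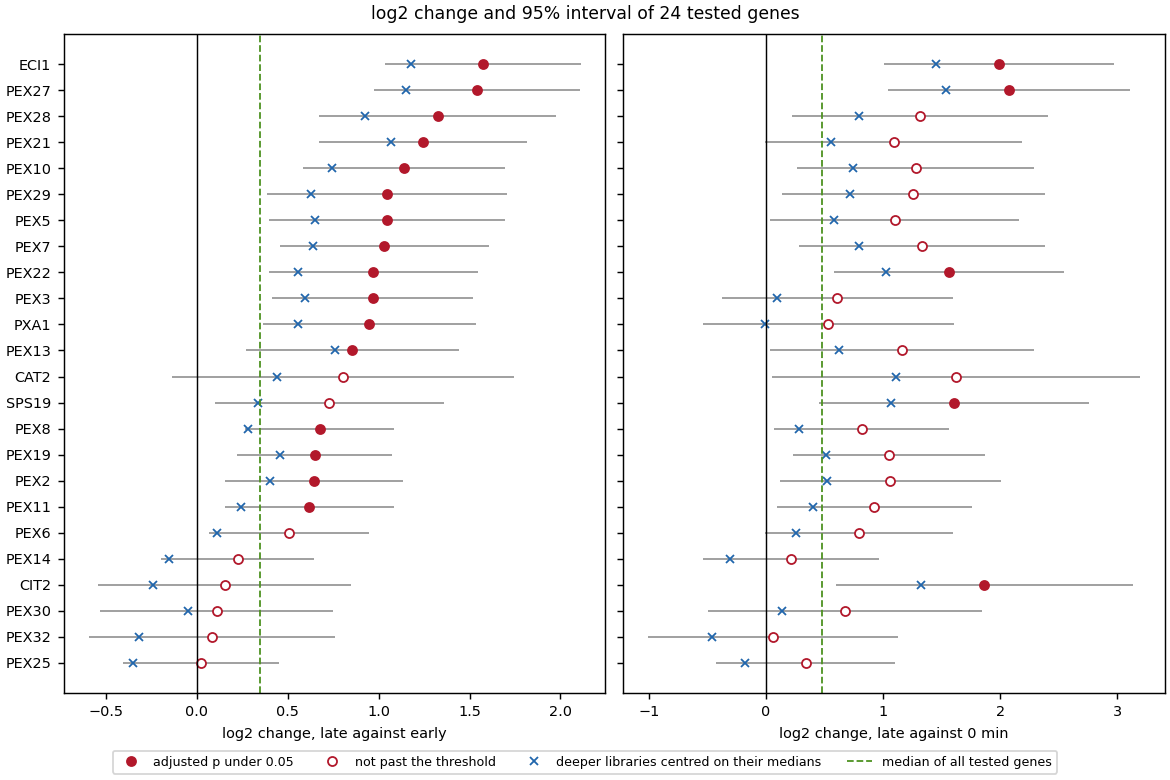
log2 change with its 95% interval of 24 tested members, late against early (left) and late against 0 min (right); filled circles passed limma's adjusted p threshold, crosses give the change when each deeper library was centred on its median, and the dashed line is the median of all tested genes. ECI1 and PEX27 lead both comparisons, and the crosses of PEX14, PEX25 and PEX32 lie below 0 in both.

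ECI1 and PEX27 rose in late libraries against both early libraries and 0 min. ECI1 encodes the enoyl-CoA isomerase that lets unsaturated fatty acids enter the β-oxidation spiral, and its gene lies at chrXII:706198-707040 on the minus strand. Late libraries held between 83.7 and 152 RPM of ECI1 with a median of 110 over 7 libraries, against 44.1, 58.9, 38.6, 26.2 and 29.3 RPM at 15, 30, 60, 105 and 120 min and 28.3 RPM at 0 min. Every listed late library lay above every listed early one and above 0 min. The log2 change late against early was 1.57 (SE 0.26), with an adjusted p of 5.23e-05 by limma. Against 0 min it was 1.99 (SE 0.48), with an adjusted p of 0.00635 by limma, and the middle window held 46.8 to 135 RPM with a median of 83.9.

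PEX27, a peripheral membrane peroxin related to Pex25 that takes part in setting peroxisome size and number, lies at chrXV:710446-711576 on the plus strand. Its late libraries held between 58.9 and 94.2 RPM with a median of 82.7 over 7 libraries, against 35.3, 34.7, 36.8, 28.3 and 10.4 RPM at 15, 30, 60, 105 and 120 min and 18.4 RPM at 0 min. The late values lay above all early values and above 0 min, and the early value at 120 min stood well under the other 4. The log2 change was 1.54 (SE 0.28) late against early, with an adjusted p of 1.15e-04 by limma. Against 0 min it was 2.08 (SE 0.50), with an adjusted p of 0.0068 by limma. With the libraries centred on their medians, the adjusted p against 0 min by limma was 0.0172 for ECI1 and 0.0191 for PEX27.

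The other 3 members passed late against 0 min as deposited, and with the libraries centred on their medians they kept positive changes that did not pass. SPS19, the 2,4-dienoyl-CoA reductase for fatty acids with double bonds at even positions, had 54.3 to 135 RPM late with a median of 87.7 over 7 libraries, against 28.5 RPM at 0 min. All of its listed late, middle and early libraries lay above 0 min. The log2 change was 1.61 (SE 0.56), with an adjusted p of 0.044 by limma, and after centring it was 1.07, with an adjusted p of 0.132. With 1 library left out at a time, the SPS19 call against 0 min held in 15 of 24 fits. Late against early SPS19 changed by 0.73 (SE 0.31), with an adjusted p of 0.0637 by limma. Its late range overlapped the early range of 43.8 to 79.4 RPM. CIT2, the peroxisomal citrate synthase of the glyoxylate cycle, had 76.6 to 230 RPM late with a median of 209 over 7 libraries. At 0 min it had 46.2 RPM, below all of its listed libraries without phosphate. The log2 change was 1.86 (SE 0.61), with an adjusted p of 0.0353 by limma, and after centring it was 1.33, with an adjusted p of 0.132. PEX22, which anchors the ubiquitin-conjugating enzyme Pex4 at the membrane, had 45.8 to 100.1 RPM late with a median of 69.0, against 36.0, 43.8, 31.3 and 35.0 RPM at 30, 60, 105 and 120 min and 24.02 RPM at 0 min. All of its listed libraries without phosphate lay above 0 min. Its log2 change against 0 min was 1.57 (SE 0.47), with an adjusted p of 0.0244 by limma, and after centring it was 1.03, with an adjusted p of 0.0935.

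**Figure D2:**
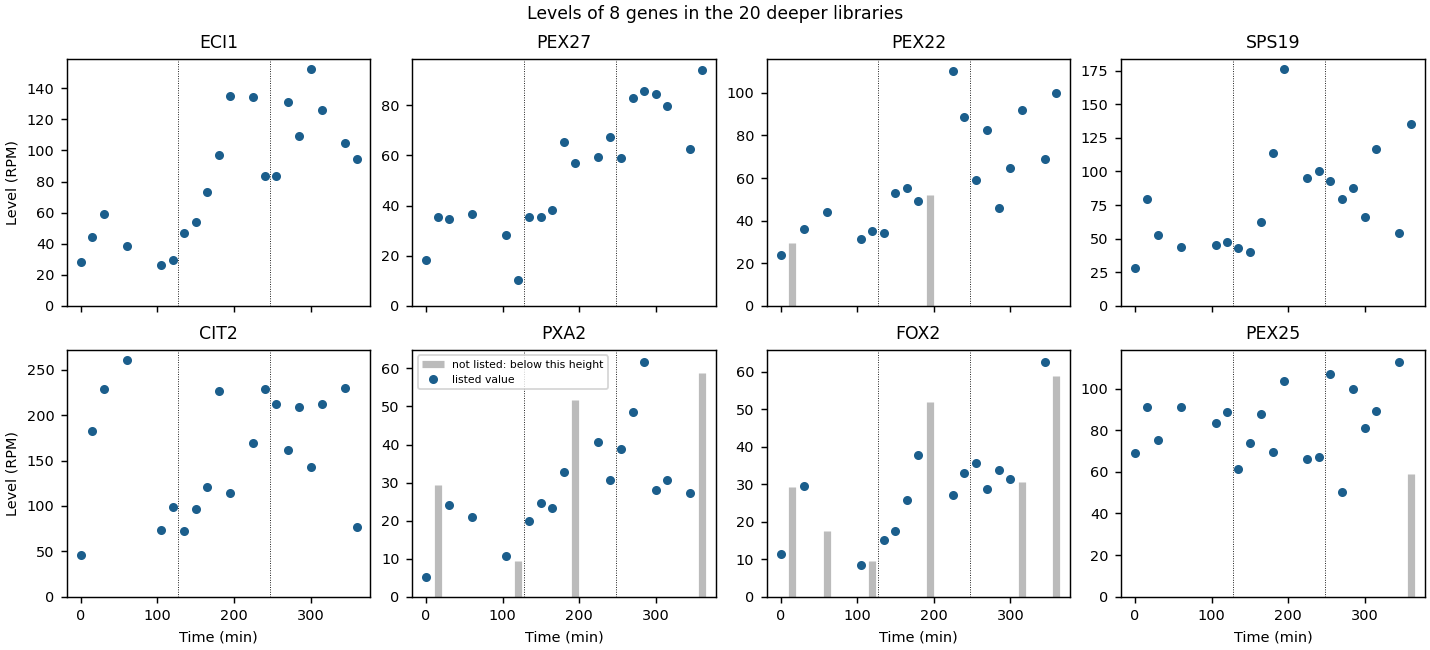
Level in RPM by time in min of 8 members in the 20 deeper libraries; points are listed values, grey bars reach the listing limit of a library without a value, and dotted lines part the windows. The late values of ECI1 and PEX27 lie above their early ones, while CIT2 stood at 182 to 261 RPM in the first hour and at 73.2 RPM at 105 min.

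Among the receptors that carry cargo from the cytosol, the 3 that could be tested all rose late against early. This count and those of the other roles below are of few genes each. They stand beside the 29.8% of all tested genes that rose late against early. PEX21, a co-receptor of the PTS2 receptor, had 95.3 to 247 RPM late with a median of 134 over 7 libraries, against 29.4 to 123 RPM with a median of 58.7 over 6 early ones. The only overlap came from the shallow library at 75 min, whose 123 RPM was the lowest value it could list. The log2 change was 1.24 (SE 0.28), with an adjusted p of 0.00102 by limma. PEX5, the receptor for the common PTS1 signal, had 43.4, 30.6, 47.8, 24.9 and 56.4 RPM at 255, 270, 285, 300 and 345 min, against 15.1, 24.5, 17.2 and 19.9 RPM at 30, 60, 105 and 120 min. The listed late and early values did not overlap, though PEX5 was unlisted at 15, 315 and 360 min. At 15 min the limit was 29.4 RPM, above its late value at 300 min. The log2 change of PEX5 was 1.05 (SE 0.31), with an adjusted p of 0.0121 by limma. PEX7, the PTS2 receptor, changed by 1.03 (SE 0.28), with an adjusted p of 0.00555 by limma, although its late range of 39.7 to 120 RPM overlapped the early range of 19.3 to 50.0 RPM. After centring, of these 3 only PEX21 passed. PEX18, the paralogue of PEX21, was unlisted throughout, so it lay below 2.02 RPM at 0 min.

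In the docking and import step, 2 of the 3 tested genes rose late against early. PEX13, which binds the loaded receptors at the membrane, had 48.1 to 154 RPM late with a median of 122, against 39.3 to 172 RPM with a median of 56.0 in early libraries. The early top value came from the shallow library at 75 min and the late lowest from 345 min, and the ranges overlapped. Its log2 change was 0.85 (SE 0.28), with an adjusted p of 0.0205 by limma. PEX8, which links docking to the ubiquitin ligases from inside the organelle, changed by 0.68 with an adjusted p of 0.0097 by limma, and by 0.28 with an adjusted p of 0.307 after centring. PEX14, the main docking partner, had 56.4 to 74.4 RPM late and 43.8 to 79.4 RPM early, with a log2 change of 0.23 and an adjusted p of 0.399 by limma. PEX17, its partner, was listed at 17.05 to 70.7 RPM in 5 late libraries, 21.8 to 32.3 RPM in 3 early ones and 20.2 RPM at 0 min, and was not tested.

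In receptor ubiquitination PEX2, PEX10 and PEX22 rose late against early. PEX2 and PEX10 encode ring-finger ubiquitin ligases of the membrane. PEX10 had 61.8 to 150.5 RPM late with a median of 79.1 over 7 libraries, against 55.8, 25.5, 43.8, 34.3 and 36.0 RPM at 15, 30, 60, 105 and 120 min. No listed late library overlapped a listed early one, and the log2 change was 1.14 (SE 0.27), with an adjusted p of 0.00186 by limma. PEX2 changed by 0.65, with an adjusted p of 0.0357 by limma, and did not pass after centring. PEX22 changed by 0.97 (SE 0.28), with an adjusted p of 0.00861 by limma, and its late values did not overlap the early ones. After centring its change was 0.56, with an adjusted p of 0.0922 by limma. PEX4, the ubiquitin-conjugating enzyme it anchors, was listed at 37.8 to 58.3 RPM in 5 late libraries, 20.7 to 35.0 RPM in 3 early ones and 27.2 RPM at 0 min, too few for the test. Among the libraries without a value, those at 255 min (late) and 60 min (early) had limits of 15.5 and 17.5 RPM. There PEX4 lay below all of its listed early values and below 0 min.

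For the step that pulls receptors back out, PEX6, an ATPase, had 67.6 to 153 RPM late and 49.1 to 85.2 RPM early, with a log2 change of 0.51 and an adjusted p of 0.0651 by limma. PEX15, its membrane anchor, was listed at 20.9 to 46.8 RPM in 3 late libraries, 15.1 to 34.1 RPM in 3 early ones and 14.7 RPM at 0 min.

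Both genes for the placing of membrane proteins rose late against early. PEX19, the chaperone for peroxisomal membrane proteins, had 153 to 198 RPM late with a median of 167 over 7 libraries, against 77.1 to 222 RPM with a median of 99.8 over 6 early ones. In the deeper libraries alone the late values lay above all early ones, since the 222 RPM came from 75 min. Its log2 change was 0.65 (SE 0.21), with an adjusted p of 0.0159 by limma. PEX3, the membrane dock of Pex19, changed by 0.97 (SE 0.27), with an adjusted p of 0.00678 by limma, its late range of 41.4 to 76.8 RPM overlapping the early range of 24.5 to 47.4 RPM, and it did not pass after centring.

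Of the 7 tested genes that set peroxisome size and number, 4 rose late against early, where 29.8% of all tested genes did. PEX28, which limits peroxisome number together with PEX29, had 82.1, 86.3, 49.8, 43.1, 73.7 and 75.2 RPM at 255, 270, 285, 300, 315 and 345 min, against 32.1, 38.6, 18.2 and 21.8 RPM at 30, 60, 105 and 120 min. The listed values did not overlap, though PEX28 was unlisted at 360 min, and the log2 change was 1.32 (SE 0.32), with an adjusted p of 0.00226 by limma. PEX29 changed by 1.05 with an adjusted p of 0.0126 by limma, and PEX11, which elongates the membrane before division, by 0.62 with an adjusted p of 0.0347 by limma. Both of these calls were lost after centring. PEX25, which acts with Pex11 and Pex27 in proliferation, had 50.4 to 113 RPM late and 75.3 to 91.2 RPM early, with a log2 change of 0.02 (SE 0.21) and an adjusted p of 0.942 by limma. PEX30 and PEX32, membrane proteins that regulate where and how many peroxisomes form, changed by 0.11 and 0.08, with adjusted p of 0.806 and 0.866 by limma. Their relative PEX31 was listed in 1 late library at 64.5 RPM, in 3 early ones at 18.7 to 24.2 RPM and at 0 min at 26.4 RPM. The direction of PEX14, PEX25, PEX30, PEX32 and CIT2 late against early turned negative under centring, with log2 changes of -0.15, -0.35, -0.05, -0.32 and -0.24.

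The genes for fatty acid entry and for the steps of β-oxidation were mostly too low to be tested. PXA1 and PXA2 encode the 2 subunits of the transporter that brings long-chain acyl-CoA into the peroxisome. PXA1 had 27.2 to 95.2 RPM late with a median of 81.2 over 7 libraries, against 35.3, 40.6, 31.6, 38.4 and 31.2 RPM at 15, 30, 60, 105 and 120 min. Apart from the 27.2 RPM at 345 min the late values lay above the early ones, and the log2 change was 0.95 (SE 0.29), with an adjusted p of 0.0112 by limma, lost after centring. PXA2 was listed at 38.7, 48.6, 61.8, 28.2, 30.7 and 27.2 RPM at 255, 270, 285, 300, 315 and 345 min, against 24.2, 21.04 and 10.6 RPM at 30, 60 and 105 min and 5.25 RPM at 0 min. All listed late values lay above the listed early values and above 0 min, and PXA2 was unlisted at 15, 120 and 360 min. At 15 min the limit was 29.4 RPM, above its late values at 300 and 345 min.

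For such genes the level of a window was bounded by pooling the reads of its deeper libraries and counting each unlisted library as anything between 0 and 10 reads. The bounds cover listing only, not counting error. They were computed for the members only, in the deposited scaling, and not with centred libraries. As deposited, all tested genes had a median log2 change of 0.35 late against early. PXA2 lay between 37.5 and 40.5 RPM late and between 12.8 and 16.4 RPM early, so it was 2.28 to 3.17-fold higher late than early, and 7.14 to 7.73-fold higher late than at 0 min. FOX2, which carries out the hydration and dehydrogenation steps of the spiral, lay at 32.0 to 38.1 RPM late and 11.3 to 16.8 RPM early. It lay at 11.5 RPM at 0 min, and its ratio between late and early was 1.91 to 3.37. Its listed values overlapped, with 29.5 and 8.58 RPM at 30 and 105 min, against 28.8 to 62.7 RPM over 5 late libraries. PEX4 had late bounds, of 32.3 to 38.4 RPM, above its early ones of 22.5 to 26.1 RPM, a ratio of 1.24 to 1.71. PEX31 had late bounds of 6.40 to 24.7 RPM, below its 26.4 RPM at 0 min. FAA2, the acyl-CoA synthetase of medium-chain fatty acids, lay between 16.2 and 28.3 RPM late, between 2.01 and 9.31 RPM early and at 7.87 RPM at 0 min. FAA2 overlaps another annotated gene, BUD25, and use of strand in the counting is not stated, so the reads of these genes cannot be told apart.

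POT1, the thiolase that closes the spiral, was listed in 4 late libraries, at 23.2, 19.8, 19.9 and 43.9 RPM at 255, 270, 300 and 345 min, and in 0 of 5 deeper early ones. Its pooled level lay between 17.98 and 27.1 RPM late and below 9.13 RPM early, and it was below 2.02 RPM at 0 min, so it was at least 8.91-fold higher late than at 0 min. POX1, the acyl-CoA oxidase of the first step, was listed at 300 min (26.5 RPM) and at 240 min (11.8 RPM). Its late bounds of 4.88 to 23.2 RPM overlapped the early ones, which reached 9.13 RPM. DCI1, a relative of Eci1, was listed at 255 min (23.2 RPM) and in 4 middle and 2 early libraries, and at 6.26 RPM at 0 min, with late bounds of 4.57 to 22.9 RPM that take in its level at 0 min. With each unlisted value set to the library's lowest listable one, limma gave PXA2 a log2 change of 1.21 late against early and 2.93 late against 0 min, with adjusted p of 0.00556 and 0.00178. In the same fit FOX2 changed by 1.22 and FAA2 by 1.37 late against early, with adjusted p of 0.00907 and 0.0134 by limma. The values set in this way were higher in late libraries, whose listing limits were higher. With unlisted values at 0 and a pseudocount of 10 RPM the PXA2 and FOX2 calls did not hold, and FAA2 was too low to be fitted. In that fit PXA2 changed by 1.04 late against early and 1.32 late against 0 min, with adjusted p of 0.127 and 0.423, and FOX2 by 1.02 late against early, with an adjusted p of 0.17 by limma.

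**Figure D3:**
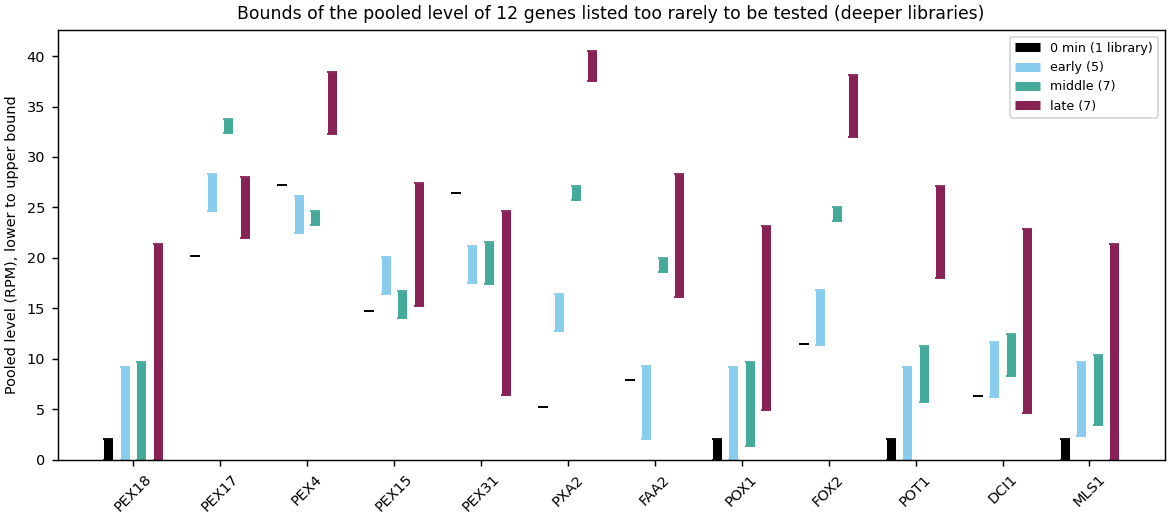
Pooled level in RPM of 12 members that could not be tested, at 0 min and in the early, middle and late windows; each bar spans the level with unlisted libraries at 0 and at 10 reads. In the deposited scaling, the late bars of PXA2, FOX2, FAA2, POT1 and PEX4 lie above their early bars. That of PEX31 lies below its level at 0 min.

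Of the glyoxylate cycle and carnitine members, CIT2 and CAT2 were tested late against early and did not pass. CIT2 had 76.6 to 230 RPM late with a median of 209, against 182, 228, 261, 73.2 and 99.3 RPM at 15, 30, 60, 105 and 120 min, and its log2 change was 0.15 (SE 0.34), with an adjusted p of 0.745 by limma. Its early libraries split into 3 high ones up to 60 min and 2 lower ones from 105 min. CAT2, the carnitine acetyltransferase of peroxisome and mitochondrion, had 34.2, 31.9, 31.5 and 46.1 RPM at 270, 285, 300 and 315 min, against 29.4, 28.8, 26.3, 13.6 and 11.4 RPM at 15, 30, 60, 105 and 120 min and 11.5 RPM at 0 min. The listed late values lay above the early ones, but CAT2 was unlisted at 255 and 345 min, where the limits were 15.5 and 20.9 RPM, so in those late libraries it lay below its levels at 15, 30 and 60 min. The log2 change over listed values was 0.80 (SE 0.45), with an adjusted p of 0.168 by limma. MLS1, the malate synthase, was listed at 30, 180 and 225 min, at 8.51, 12.3 and 22.1 RPM, and in no late library, where its pooled level could reach 21.3 RPM.

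In the first hour some enzyme genes stood above their levels from 105 min on, a pattern picked after seeing the values and given as a description. CIT2 had 182, 228 and 261 RPM at 15, 30 and 60 min, against 73.2, 99.3, 72.6 and 96.2 RPM at 105, 120, 135 and 150 min. CAT2 had 29.4, 28.8 and 26.3 RPM at the first 3 times, against 13.6, 11.4, 10.6 and 16.1 RPM at the later 4. In both genes all first-hour libraries lay above all of the later 4. They were 2 of the 5 enzyme genes listed in all 7 of these libraries, while 0 of 14 such peroxin genes did so, against 6.41% of 3726 genes. Between the 2 deepest libraries of the early window, 8 of 8 enzyme genes were higher at 30 min than at 105 min, with a median log2 difference of 1.12. Of 25 peroxin genes 13 were higher, with a median of 0.05, against 51.5% of 5123 genes and a median of 0.01. FOX2 had 29.5 RPM at 30 min and 8.58 RPM at 105 min, ECI1 58.9 and 26.2 RPM, and PXA2 24.2 and 10.6 RPM. DCI1, PXA1 and SPS19 hardly differed, with ratios of 1.02, 1.06 and 1.15 between 30 and 105 min. Each time is 1 library, so these differences have no replicate check, and fresh medium and loss of phosphate cannot be told apart in the first hour.

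Counted over single libraries, 14 members were listed in all 5 early and all 7 late deeper libraries. In 5 of them (ECI1, PEX10, PEX19, PEX21 and PEX27) every late library lay above every early one, as in 23.8% of the 2817 genes listed in the same way. Of 17 members listed at 0 min and in all 7 deeper late libraries, 14 were above 0 min in every late one, against 50.2% of 3040 such genes. The exceptions were PEX13, PEX30 and PXA1.

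Among tested members, those with and without a match to the oleate response element had like median changes. Only 6 of the 12 members with a match were tested. Late against early, these 6 had a median log2 change of 0.79 and 4 of them rose. The 19 tested without a match had a median of 0.80 and 13 rose, where 29.8% of all tested genes rose. Late against 0 min the medians were 1.13 and 1.06, and the lowest changes 0.79 and 0.06. There 2 of the 6 and 3 of the 19 rose, where 15.1% of all tested genes did. Among ECI1 and PEX27, which led, ECI1 has a match and PEX27 has none in these 500 bases. Of the 6 untested enzyme and transporter genes with a match, PXA2, FOX2, FAA2 and POT1 had late bounds above the early ones. Those of POX1 and DCI1 overlapped them. Bounds were computed for the members only, so no share over all genes stands beside this count. The median log2 change of all tested genes late against early was itself 0.35 as deposited. The part of the element in these changes was not tested.

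Other genes of peroxisomes and lipid use were described from lists chosen with earlier results of these data known, and their counts stand beside the 15.1% of all tested genes that rose late against 0 min. No gene of these lists passed as lower in that comparison. Calls in these lists, here and late against early below, are for the deposited scaling only. For late against 0 min, centring changed the counts of all genes from 659 higher and 190 lower to 365 and 441. Of the 9 tested genes for other peroxisomal matrix enzymes 4 rose, led by PNC1, the nicotinamidase carried in with Gpd1, with a log2 change of 3.27 and an adjusted p of 9.46e-04 by limma. GPD1, the glycerol-3-phosphate dehydrogenase, and LYS1, the last enzyme of lysine synthesis, rose by 2.05 and 1.75, with adjusted p of 0.00475 and 0.00697 by limma. Of 5 regulators of oleate and glucose control 2 rose: MIG1, a glucose repressor, by 1.80, and REG1, a phosphatase subunit acting on Snf1, by 1.13, with adjusted p of 0.0183 and 0.0281 by limma. OAF1 itself changed by 0.57 with an adjusted p of 0.619 by limma. Of 6 genes for peroxisome fission, inheritance and turnover 0 passed, ATG11 having the smallest p with a log2 change of 1.11 and an adjusted p of 0.0625 by limma.

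Of 4 other acyl-CoA synthetase genes 1 rose, FAA1, by 2.02 with an adjusted p of 0.0194 by limma. FAA4 of that list went the other way, by -1.54 with an adjusted p of 0.0873 by limma. The median log2 change of the 4 was -0.06. In triacylglycerol storage and lipolysis 2 of 9 rose: DGA1, the acyltransferase that makes triacylglycerol, by 1.82, and PAH1, the phosphatidate phosphatase before it, by 1.43, with adjusted p of 0.00347 and 0.0456 by limma. Of 11 fatty acid synthesis genes 0 passed, and SUR4, an elongase, had the smallest p, with a log2 change of -1.17 and an adjusted p of 0.0873 by limma. Of 6 genes for the glyoxylate cycle and gluconeogenesis beyond the members 1 rose, the lactate carrier gene JEN1, by 1.87 with an adjusted p of 0.0244 by limma. The carnitine acetyltransferase gene YAT2 rose by 1.58 with an adjusted p of 0.043 by limma. Of 6 genes of retrograde signalling, the route from mitochondrion to nucleus of which CIT2 is the classic target, 1 rose, the mitochondrial citrate synthase gene CIT1, by 2.20 with an adjusted p of 0.00355 by limma. Markers of other cell states were checked in the same way. Of 6 a-specific genes 0 passed (the smallest p was that of MFA2, with a log2 change of 0.89 and an adjusted p of 0.389 by limma), as did 0 of 1 tested α-specific gene (STE3, 1.05, adjusted p 0.0963), while of 2 tested meiosis genes NDT80 rose by 2.06 with an adjusted p of 0.00595 by limma. The part of such cell states in the results was not tested.

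Late against early, where 29.8% of all tested genes rose and 7.36% fell, the same lists gave other counts. Of the matrix enzymes 4 of 9 rose, of the regulators 1 of 5, of the other acyl-CoA synthetases 1 of 4, of the glyoxylate cycle and gluconeogenesis genes 3 of 6, and the tested carnitine gene YAT2 rose as well, by 0.74 with an adjusted p of 0.0436 by limma. ATG11, which tethers cargo for selective autophagy, rose by 1.21 with an adjusted p of 4.99e-04 by limma, as 1 of the 6 genes of fission, inheritance and turnover. Of the triacylglycerol genes 5 of 9 rose, with DGA1 at 1.27 and PAH1 at 1.58. Of the 11 fatty acid synthesis genes 1 rose, the desaturase gene OLE1, by 1.42 with an adjusted p of 7.39e-04 by limma. The elongase genes SUR4 and FEN1 of that list fell, with log2 changes of -0.79 and -0.71 and adjusted p of 0.0129 and 0.0121 by limma. Of the 6 retrograde genes 2 rose, and DLD3, a lactate dehydrogenase gene, fell, with a log2 change of -0.80 and an adjusted p of 0.00454 by limma. FAA4, OLE1, FEN1 and DLD3 were named after their values were seen. Of the markers, 0 of 6 a-specific genes and 0 of 1 α-specific gene passed, and NDT80 rose by 1.36 with an adjusted p of 6.21e-04 by limma.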

How the data were processed

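Total RNA of 25 libraries was extracted in plates and sequenced on an Illumina instrument, per the labels' protocols. Bowtie and the build R64 are named in the submitters' processing notes. Which counter and tool versions were used, and whether strand was used, is not given in the sources used here. The authors deposited log2 RPM, with genes under 10 reads left out and the remaining genes of each library summing to 1000000, as the values show. Taking each library's lowest value as 10 reads, 93.4% to 95.3% of values in a deeper library came out whole within 0.01. The labels mention a normalization to 0 min, but the columns hold levels. The table's 51 rows without a gene name hold no values.

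One limma model (version 3.58.1, R 4.3.3, with trend and robust moderation) with the groups 0 min, early, middle and late was fitted to 4364 genes with a mean of at least 10 RPM (unlisted as 0), a value at 0 min and at least 4 libraries per window. Unlisted values were left out gene by gene, and p-values were two-sided with Benjamini-Hochberg adjustment over all of these genes. Below the listing limit only bounds between 0 and 10 reads per library were computed, and the counting error of single values was not added.

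The members and lists were chosen with earlier results of these data known. Of the members, 2 are counted in the totals but not reported here singly, and all others are named, and of each further list at most the 3 called genes with the smallest adjusted p in late against 0 min, or the gene with the smallest p where none passed. OAF1 was named for its role, after its values were seen. Alternatives changed the scaling, libraries, weights, filters, unlisted values, pseudocount of 10 RPM, moderation and model of time, and left out each library in turn. On simulated data the fit called 98.7% of 75 tested genes changed 4-fold and 48.2% of 85 changed 2-fold late against early. Late against 0 min it called 64% and 4.71% of them, among 4238 genes fitted. The simulated means were constant within a window, the spread between libraries was assumed, and the lowest genes were left unchanged. These shares may therefore not hold for low members or for those that drift within a window.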

Additional observations from a re-analysis of the deposited data

Results flagged for a closer look

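In 6 of 72 windows of the tested members reported here, each with 4 to 7 listed libraries, the highest or lowest library stood apart from the rest by Dixon's criterion, which chance alone meets in about 1 of 20 windows. PEX13 stood at 172 RPM at 75 min, against 39.3 to 58.7 RPM in the other early libraries. The lowest value listed at 75 min was 123 RPM. PEX27 stood at 10.4 RPM at 120 min, against 28.3 to 36.8 RPM in the other early libraries. In the late window PEX13 and PXA1 were low at 345 min, with 48.1 and 27.2 RPM against 110 to 154 and 55.7 to 95.2 RPM in the others. PEX3 was low at 300 min, with 41.4 RPM against 61.8 to 76.8 RPM. PEX21 was high at 360 min, with 247 RPM against 95.3 to 141 RPM in the other late libraries, where the lowest listable value was 58.9 RPM.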

How the results depend on the processing

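No call among the members changed direction under any alternative, and early against 0 min gave 0 members throughout. Late against early, the 17 members became 7 with libraries centred on their medians, 5 when scaled outside ribosomal protein genes, 3 with quantile normalization, 10 with a pseudocount, 5 (of 5 tested) with at least 6 libraries per window, and 10 of 12 among genes listed in all deeper libraries (6 of 12 with centring), these last both chosen after seeing the data. Leaving out 1 library at a time gave 9 to 18. Late against 0 min, the 5 became 2 with centring, 2 outside ribosomal protein genes, 0 with quantile normalization, 12 with library weights, 3 with a pseudocount, 0 (of 5 tested) with at least 6 libraries per window and 2 among complete genes with centring. Leaving out 1 library at a time gave 3 to 7, and 3 without 30, 60, 105, 120, 285 or 315 min. In the middle window against 0 min the 0 became 4 with library weights and 1 with unlisted values at the listing limit, and 0 to 2 without 1 library. The causes were not tested, beyond the smaller number of members that some filters leave. Centring moved the median of all genes late against early to -0.02, against 0.35 as deposited, and late against 0 min to -0.07, against 0.48. The 13 members outside the fit rest on listed values, bounds and fits that set unlisted values. No paired analysis was possible because each time is 1 library and no number is shared between windows.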
